A study of Mus musculus with 24 samples.

Results

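HQHF, the Huatanqushihuoxue Formula, is a herbal preparation, and its effect on the liver transcriptome of mice on a high-fat diet (HFD) is described here gene by gene. The comparison holds 7 of the 12 long RNA libraries of the study, which has 24 libraries with the small RNA ones. They are the libraries HFD plus HQHF 1, 2 and 4, and HFD 1 to 4, each from the liver of 1 mouse. A library entered if Alb, the gene of the albumin that hepatocytes secrete, reached 1000 CPM (counts scaled to one common library size) when set against its total count. The libraries were thus selected on a measured value, their Alb level, so the level of Alb and the separation of the kept from the left-out libraries are no result. The 7 libraries had between 35054 and 76292 CPM of Alb. HFD plus HQHF 3 had 0.743 CPM and was left out. Among the libraries of mice on a normal diet, control 2 had 46.4 CPM and was left out too, and controls 1, 3 and 4 were kept to share the estimate of spread and for their levels.

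The mice were male, wild type and of the C57BL/6 strain. HFD plus HQHF mice were fed high-fat chow, with gavage of HQHF once 12 weeks on it had passed. The HFD group ate the same diet without HQHF, and the control group ate a normal diet. Each group of the study had 9 mice, and it treated mice with low, medium and high doses of HQHF. The labels name neither the dose of the libraries analysed here, nor the age of the mice, nor how long gavage lasted. Each mouse carries a batch code of its own, so batch and mouse cannot be told apart and no batch term could be fitted. Nothing in the labels says that the HFD group received a vehicle.

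As background, metabolic fatty liver disease starts with lipid stored in hepatocytes and can progress to inflammation and scarring. Resident macrophages, the Kupffer cells, are then joined by macrophages that arise from blood monocytes, and stellate cells turn into matrix-producing myofibroblasts. Injured hepatocytes also lose part of the program that defines them, such as the enzymes of drug, bile acid and amino acid metabolism. The design text of the study names ferroptosis, an iron-dependent cell death by lipid peroxidation, as its subject.

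The 7 libraries held from 36198931 to 46454404 counts over 18314 listed genes, and 13832 genes passed the filter on low counts. Levels below are CPM after scaling by TMM (trimmed mean of M-values, which sets the typical gene equal between libraries). The TMM factors were 0.823 to 0.939 in HFD plus HQHF, 1.20 to 1.42 in HFD and 0.763 to 0.892 in control, so the 2 groups compared do not overlap in them. A few abundant genes took different shares of the counts. Nemf, a ribosome quality control gene, took 6.54% to 11.7% of counts in HFD plus HQHF and 5.14% to 6.21% in HFD. In the RefSeq annotation (GRCm38.p6) its neighbour on chromosome 12 is the small cytoplasmic RNA gene Rn7s2, and the part of that gene in the count was not tested. The 22 Mup genes, which encode major urinary proteins, took 4.08% to 10.4% in HFD plus HQHF and 0.0734% to 1.34% in HFD. With library totals in place of TMM, the median gene was at a log2 fold change of -0.62 in HFD plus HQHF against HFD, beside -0.07 with TMM. Directions are therefore given relative to the typical gene, and groups of higher genes are set beside their count under library totals.

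**Figure D1:**
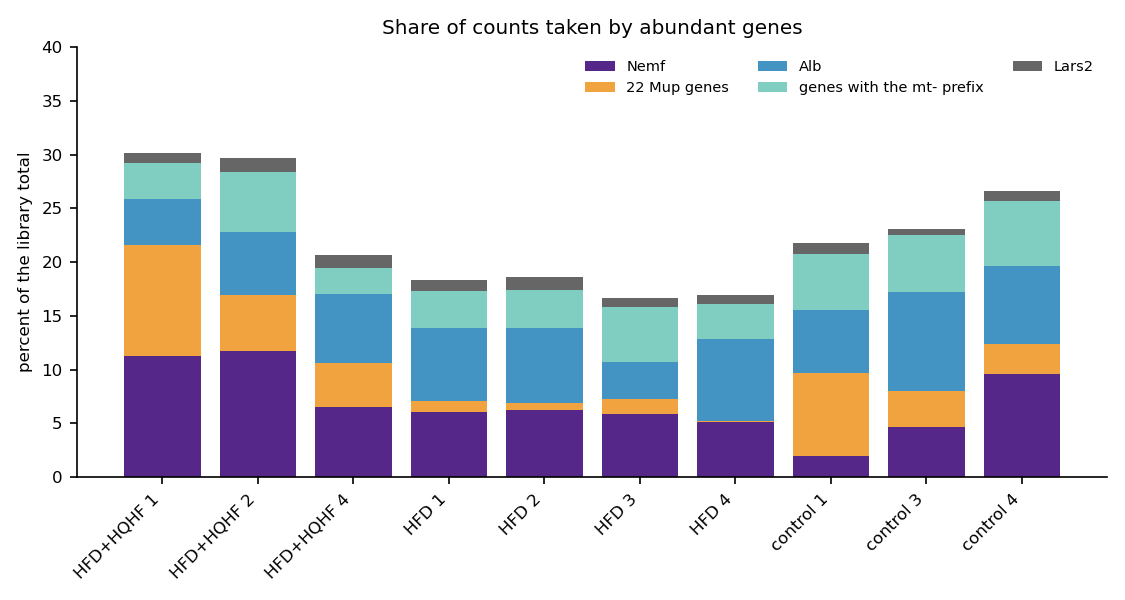
Percent of each library's total count taken by Nemf, the 22 Mup genes, Alb, genes with the mt- prefix and Lars2, for HFD plus HQHF, HFD and control livers (bars are single libraries, stacked). The Mup share is 4.08% to 10.4% in HFD plus HQHF and at most 1.34% in HFD.

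Marker lists were used to describe the tissue. The 16 hepatocyte markers together made up 11.3% to 15.1% of counts in HFD plus HQHF and 9.64% to 16.1% in HFD, with none at 0. Alb, on which the libraries were selected, is one of them, so this sum is not independent of the selection. HFD 3 stood apart on the second principal component of the 500 most variable genes (44.1, against -15.8 to 5.02 in the other 9 libraries) and held RNA of a fat-like kind. Its Fabp4, a fatty acid carrier of fat cells, was at 96.4 CPM, against 3.21 to 26.8 CPM in the other HFD libraries and 3.32 to 5.14 CPM in HFD plus HQHF. The 9 adipocyte markers summed to 0.00267% to 0.0045% of counts in HFD plus HQHF, with up to 5 members at 0, and 0.00165% to 0.0537% in HFD, with up to 4 at 0. The part of this RNA in the results was not tested beyond leaving out HFD 3. In HFD plus HQHF 3 the same list made up 1.68% of counts.

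HFD plus HQHF differed from HFD in many genes. Of 13832 genes tested, 2618 (18.9%) passed a Benjamini-Hochberg adjusted p of 0.05 in edgeR's quasi-likelihood test. HQHF was higher in 1086 of them (7.85% of all tested) and lower in 1532 (11.1%). The genes called lower changed more, with a median log2 fold change of -1.57, against 0.75 for those called higher, and 1179 lower but 274 higher genes reached 2-fold. The genes called lower were also of low level, with a median of 4.14 CPM over the 2 group means, beside 46.1 CPM for those called higher and 11.1 CPM for all tested. On the first principal component, which held 54.6% of the variance, HFD plus HQHF lay at -27.6 to -24.1, HFD at 23.1 to 61.7 and control at -26.6 to -24.3. The values of the 2 groups did not overlap for 4248 genes (30.7%), 2463 of them called.

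**Figure D2:**
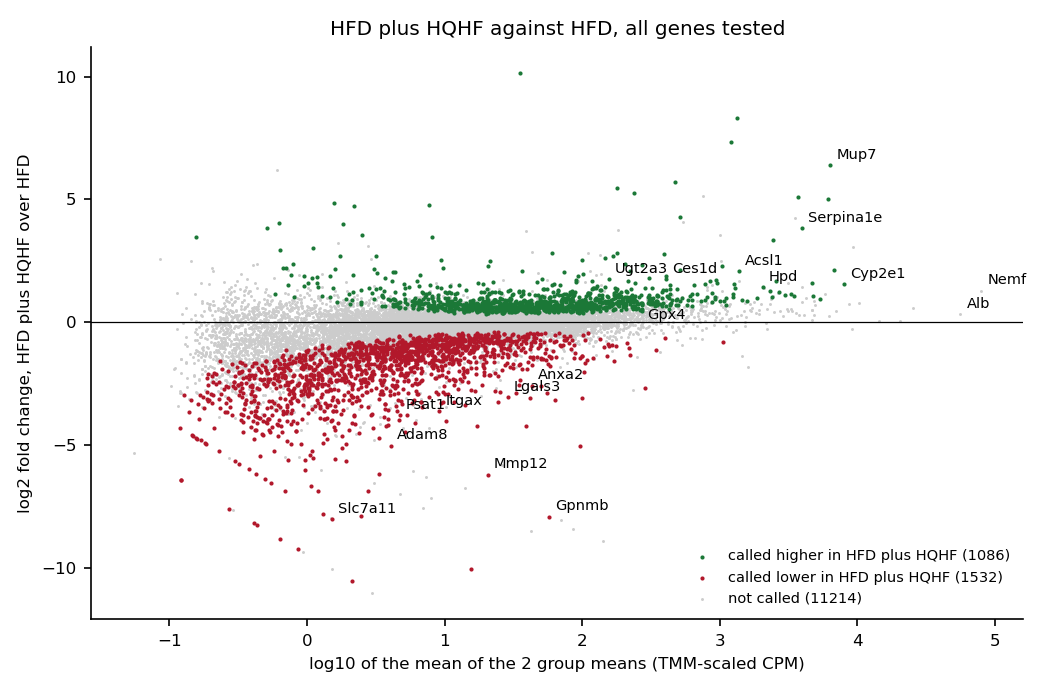
Each point is 1 of 13832 genes. The x axis is log10 of the mean of the 2 group means in TMM-scaled CPM, and the y axis is the fitted log2 fold change of HFD plus HQHF over HFD, green where called higher (1086), red where called lower (1532) and grey where not called. The lower genes spread further from 0 than the higher genes and lie at lower levels, and fitted values of genes with almost no read in HFD plus HQHF, along the lower left edge, depend on the prior count.

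These counts rest on the choice of libraries. With HFD plus HQHF 3 and control 2 included as labelled, 1 gene of 13929 was called, Itgax, at a log2 fold change of -3.58 (adjusted p = 0.00778), and 1659 genes had an unadjusted p under 0.05. Every other call given below is thus lost when those 2 libraries are added. Without HFD plus HQHF 1, 633 genes were called, and without HFD plus HQHF 2, 803. The other leave-one-out fits over the 2 groups called between 1629 and 3301 genes. A total of 522 genes, 239 higher and 283 lower, were called in all 7 leave-one-out fits. Library totals called 137 genes higher (0.99%) and 6496 lower (47%). All 137 and all 1532 TMM calls in these directions were shared, while 179 of the genes called higher with TMM had a negative value under totals, none of them called.

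**Figure D3:**
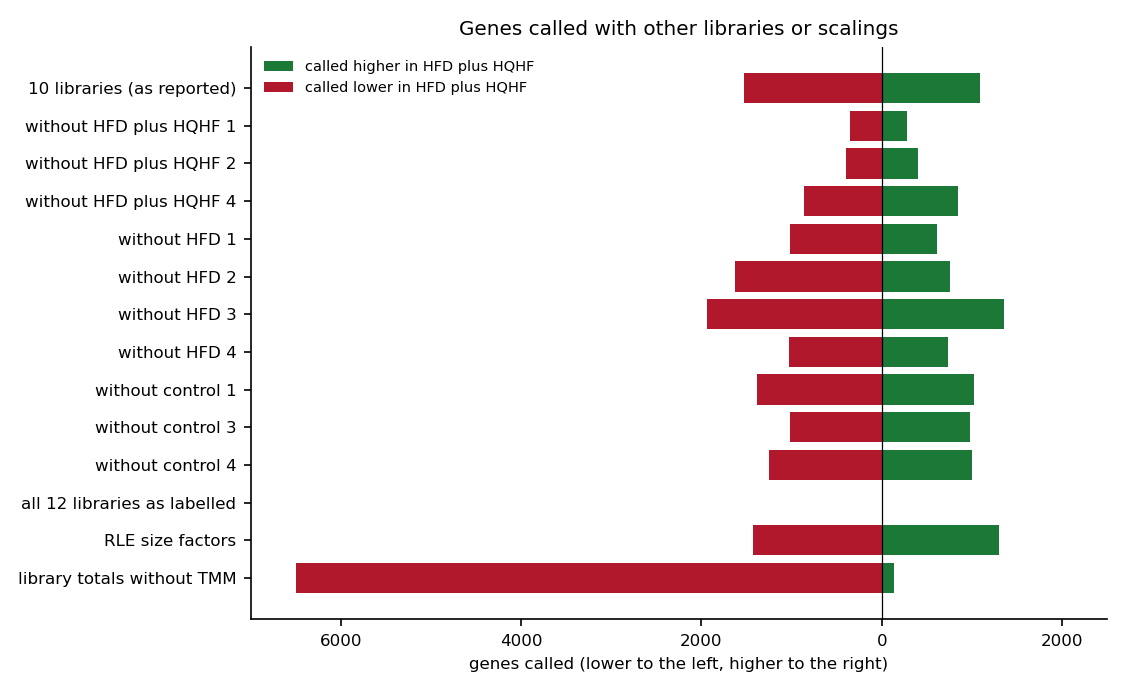
Genes called higher (right, green) and lower (left, red) in HFD plus HQHF against HFD, with the 10 libraries reported, without each library in turn, with all 12 libraries, and with 2 other scalings. The count falls to 633 without HFD plus HQHF 1 and to 1 with all 12 libraries, and library totals move most calls to the lower side.

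Genes of macrophages that enter the injured liver were lower with HQHF, and one of them had the smallest p of all genes tested. Mmp12 (ENSMUSG00000049723), the macrophage elastase, was at 0.402, 0.496 and 0.758 CPM in the HFD plus HQHF libraries, against 59.1, 31.1, 35.7 and 36.8 CPM in the HFD libraries. Every HQHF library lay below 1 CPM, far under the lowest HFD library. Its log2 fold change was -6.19 ± 0.31 (SE, adjusted p = 8.20e-06), and control libraries had 0.315, 0.308 and 0.317 CPM. Lgals3 (ENSMUSG00000050335), galectin-3 of phagocytes, was at 7.55, 6.26 and 4.97 CPM in the HFD plus HQHF libraries, against 71.8, 31.9, 49.1 and 52.3 CPM in the HFD libraries (log2 fold change -3.03 ± 0.28 SE, adjusted p = 0.000623). Itgax (ENSMUSG00000030789), the CD11c integrin chain, was at 1.12, 1.43 and 1.6 CPM in the HFD plus HQHF libraries, against 21.4, 10.3, 11.8 and 24 CPM in the HFD libraries (-3.60 ± 0.38 SE, adjusted p = 0.00178). For both genes the groups were wide apart, and HFD 1 or HFD 4 was the highest library. Gpnmb (ENSMUSG00000029816), a membrane glycoprotein found on foamy macrophages, stood at 0.172, 0.235 and 0.994 CPM in the HFD plus HQHF libraries, against 131, 54.6, 93.5 and 177 CPM in the HFD libraries (-7.91 ± 0.86 SE, adjusted p = 0.0021). In bulk tissue, fewer cells of a type and less RNA per cell cannot be told apart.

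Of the 14 monocyte and recruited macrophage markers, all tested, 11 fell in HFD plus HQHF and 0 rose, at a median log2 fold change of -3.09 beside -0.07 over all genes. Besides those above they were Trem2, a lipid-sensing receptor (log2 fold change -3.32, adjusted p = 0.0021), Cx3cr1, the fractalkine receptor (-3.26, adjusted p = 0.00622), Ccr2, the receptor that brings monocytes into tissue (-2.43, adjusted p = 0.0058), Itgam (-2.55, adjusted p = 0.0175), the lipase Lpl (-3.14, adjusted p = 0.0055), the tetraspanin Cd9 (-1.72, adjusted p = 0.0021) and the collagenase Mmp13. The remaining members, Spp1 (-2.60, adjusted p = 0.0946), Fabp5 (-1.62, adjusted p = 0.132) and Ly6c2 (-1.18, adjusted p = 0.0779), did not pass. The summed level of the list was 52.8 to 67.9 CPM in HFD plus HQHF, against 273 to 937 CPM in HFD. No leave-one-out fit moved the count of lower members by more than 1.5 times.

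Adam8 and Anxa2 were also among the 8 genes that fell with the smallest p. Adam8 (ENSMUSG00000025473), a metalloprotease of myeloid cells, was at 0.258, 0.261 and 0.209 CPM in the HFD plus HQHF libraries, against 8.86, 5.46, 6.72 and 10.6 CPM in the HFD libraries (log2 fold change -5.01 ± 0.39 SE, adjusted p = 0.000411). Anxa2 (ENSMUSG00000032231), annexin A2, a membrane-binding protein made by macrophages, bile duct cells and many others, was at 12.2, 14.1 and 10.8 CPM in the HFD plus HQHF libraries, against 74.8, 58.6, 59.6 and 102 CPM in the HFD libraries (-2.58 ± 0.23 SE, adjusted p = 0.000535). Both were higher in every HFD library than in any HQHF library, which the choice of these 8 required. Gpr137b, a lysosomal membrane protein (-2.08, adjusted p = 0.000909), the poliovirus receptor Pvr (-1.47, adjusted p = 0.00102) and the cytoskeletal gene Epb41l1 (-2.40, adjusted p = 0.000535) completed that set.

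Kupffer cell markers moved in both directions. Of 12 tested, 4 rose and 1 fell (33.3% and 8.33%, beside 7.85% and 11.1% of all genes), with a median of 0.03. The share that fell was thus no more than that of all genes. With library totals 1 rose and 4 fell, and the median turned to -0.51, above the -0.62 of all genes. Folr2, a folate receptor of resident macrophages, was at 13.7, 12.8 and 10.5 CPM in the HFD plus HQHF libraries, against 8.05, 5.29, 5.33 and 4.06 CPM in the HFD libraries (log2 fold change 1.12 ± 0.22 SE, adjusted p = 0.00988). All HQHF values exceeded all HFD values. Clec4f, the lectin that defines Kupffer cells (1.14, adjusted p = 0.0133), Timd4, a receptor for dying cells (1.57, adjusted p = 0.0336), and Cd163, the haemoglobin scavenger receptor (2.29, adjusted p = 0.033), rose as well. Cd68, a lysosomal glycoprotein that all macrophages share, was at 16.7, 13.4 and 10.5 CPM in the HFD plus HQHF libraries, against 43.5, 22.8, 27.7 and 36.3 CPM in the HFD libraries (-1.27 ± 0.23 SE, adjusted p = 0.00829). The number that rose was 1 without HFD plus HQHF 1, 2 without HFD plus HQHF 2.

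Some genes of other inflammatory lists and of the lysosome fell. Lower members made up 23.1% of the cytokine and acute phase genes and 31.25% of the antigen presentation genes, beside 11.1% of all genes. Of 26 cytokine and acute phase genes, 6 fell: the chemokines Ccl2 (log2 fold change -3.71, adjusted p = 0.00881), Ccl3 (-3.85, adjusted p = 0.0163), Ccl4 (-4.10, adjusted p = 0.0286), Cxcl1 (-1.49, adjusted p = 0.0453) and Cxcl2 (-3.70, adjusted p = 0.0182), and Tgfb1 (-0.81, adjusted p = 0.0459). Ccl2, which attracts monocytes, was at 0.172, 0.496 and 0.0784 CPM in the HFD plus HQHF libraries, against 6.9, 2.52, 1.78 and 2.01 CPM in the HFD libraries. The HQHF values were all below the lowest HFD value. The acute phase genes of the list, such as Saa1, Saa2, Orm1 and Hp, had no call, and 10 of the 26 had a positive value. The summed level of the list was 3891 to 23070 CPM in HFD plus HQHF, against 4307 to 5862 CPM in HFD, with overlap. Of 16 antigen presentation genes, 5 fell, all of the class II pathway: H2-Eb1 (-1.60, adjusted p = 0.0112), H2-Ab1 (-1.48, adjusted p = 0.0224), H2-Aa (-1.38, adjusted p = 0.0253), the invariant chain Cd74 (-1.57, adjusted p = 0.0156) and the class II activator Ciita (-1.15, adjusted p = 0.0471). Of 27 lysosome genes 4 fell, among them cathepsin S, Ctss (-1.41, adjusted p = 0.0152), and 1 rose, Lamp2 (0.55, adjusted p = 0.0477), so that the share of lysosome genes that fell was near the 11.1% of all genes. Counts of lower members were, for cytokines, 1 without HFD plus HQHF 2, 2 without HFD plus HQHF 4, 3 without HFD plus HQHF 1 or HFD 1, for antigen presentation, 0 without HFD plus HQHF 1, 1 without HFD plus HQHF 4, 3 without HFD 1 or 4, and for the lysosome, 1 without HFD plus HQHF 2, 2 without HFD 4. A lysosome gene was called higher without HFD 3 and none in the other 9 fits without a library. Among single genes, the call was lost for Ccl3 without HFD plus HQHF 1, 2 or 4 (adjusted p up to 0.069), Ctss without HFD plus HQHF 2 or 4 (adjusted p up to 0.0667), Cd74 without HFD plus HQHF 1 or 4 (adjusted p up to 0.0697), H2-Eb1 without HFD plus HQHF 1 (adjusted p = 0.0525).

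Matrix genes fell nearly as a block. Of 28 tested, 23 fell (82.1%, beside 11.1% of all genes) and 0 rose, at a median of -2.21. The summed level of the list still overlapped, at 1360 to 4161 CPM in HFD plus HQHF, against 1711 to 5653 CPM in HFD. Mmp13 (ENSMUSG00000050578), a collagenase, was at 0.373, 0.104 and 0.0784 CPM in the HFD plus HQHF libraries, against 7.54, 3.66, 2.55 and 1.77 CPM in the HFD libraries (log2 fold change -4.39 ± 0.69 SE, adjusted p = 0.00503). Timp1, the inhibitor of such proteases, was at 0.172, 0.0522 and 0.261 CPM in the HFD plus HQHF libraries, against 3.03, 0.827, 3.2 and 3.08 CPM in the HFD libraries (-3.94 ± 0.67 SE, adjusted p = 0.0065). HFD 2 was far below the other HFD libraries in Timp1, yet above every HQHF library. The fibrillar collagens Col1a1 (-4.20, adjusted p = 0.016), Col1a2 (-2.86, adjusted p = 0.0175) and Col3a1 (-3.09, adjusted p = 0.011), the cross-linking enzymes Lox (-3.55, adjusted p = 0.0094) and Loxl1 (-2.67, adjusted p = 0.00841), and the myofibroblast genes Acta2 (-3.24, adjusted p = 0.0472) and Tagln (-2.24, adjusted p = 0.0256) fell too. Col1a1 averaged 3.99 ± 3.55 CPM in HFD plus HQHF and 73.6 ± 58.1 CPM in HFD (SD, n = 3 and 4).

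This block depended on 2 libraries of the HQHF group. The number of matrix genes that fell was 5 without HFD plus HQHF 1 or 2. All collagen genes tested, 31 by symbol, held 15 that fell and 0 that rose, and here the count of lower genes was 1 without HFD plus HQHF 1 or 2.

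Stellate cell markers fell in 5 of 12 and rose in 0. Pdgfrb (ENSMUSG00000024620), the growth factor receptor of stellate cells and pericytes, was at 11.2, 8.84 and 19.8 CPM in the HFD plus HQHF libraries, against 47.2, 36.9, 23.1 and 80.3 CPM in the HFD libraries (log2 fold change -1.82 ± 0.41 SE, adjusted p = 0.0173). HFD 4 was the highest and HFD plus HQHF 4 the highest of its group. Hand2, a transcription factor of stellate cells (-1.26, adjusted p = 0.0264), Des, desmin (-0.93, adjusted p = 0.0341), Cygb, cytoglobin (-1.61, adjusted p = 0.0365), and the proteoglycan Dcn (-0.86, adjusted p = 0.0322) were the others. Lrat, which stores retinol as ester in quiescent stellate cells, was at a log2 fold change of -0.14, adjusted p = 0.753. The stellate list summed to 529 to 649.7 CPM in HFD plus HQHF, against 575 to 1203 CPM in HFD, and its count of lower members was 0 without HFD plus HQHF 1 or 2, 1 without HFD plus HQHF 4, 2 without control 3, 3 without HFD 1 or 4. Pdgfrb and Hand2 lost their calls, Pdgfrb without HFD plus HQHF 1 or 2 (adjusted p up to 0.0754), Hand2 without HFD plus HQHF 1, 2 or 4 (adjusted p up to 0.0976).

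**Figure D4:**
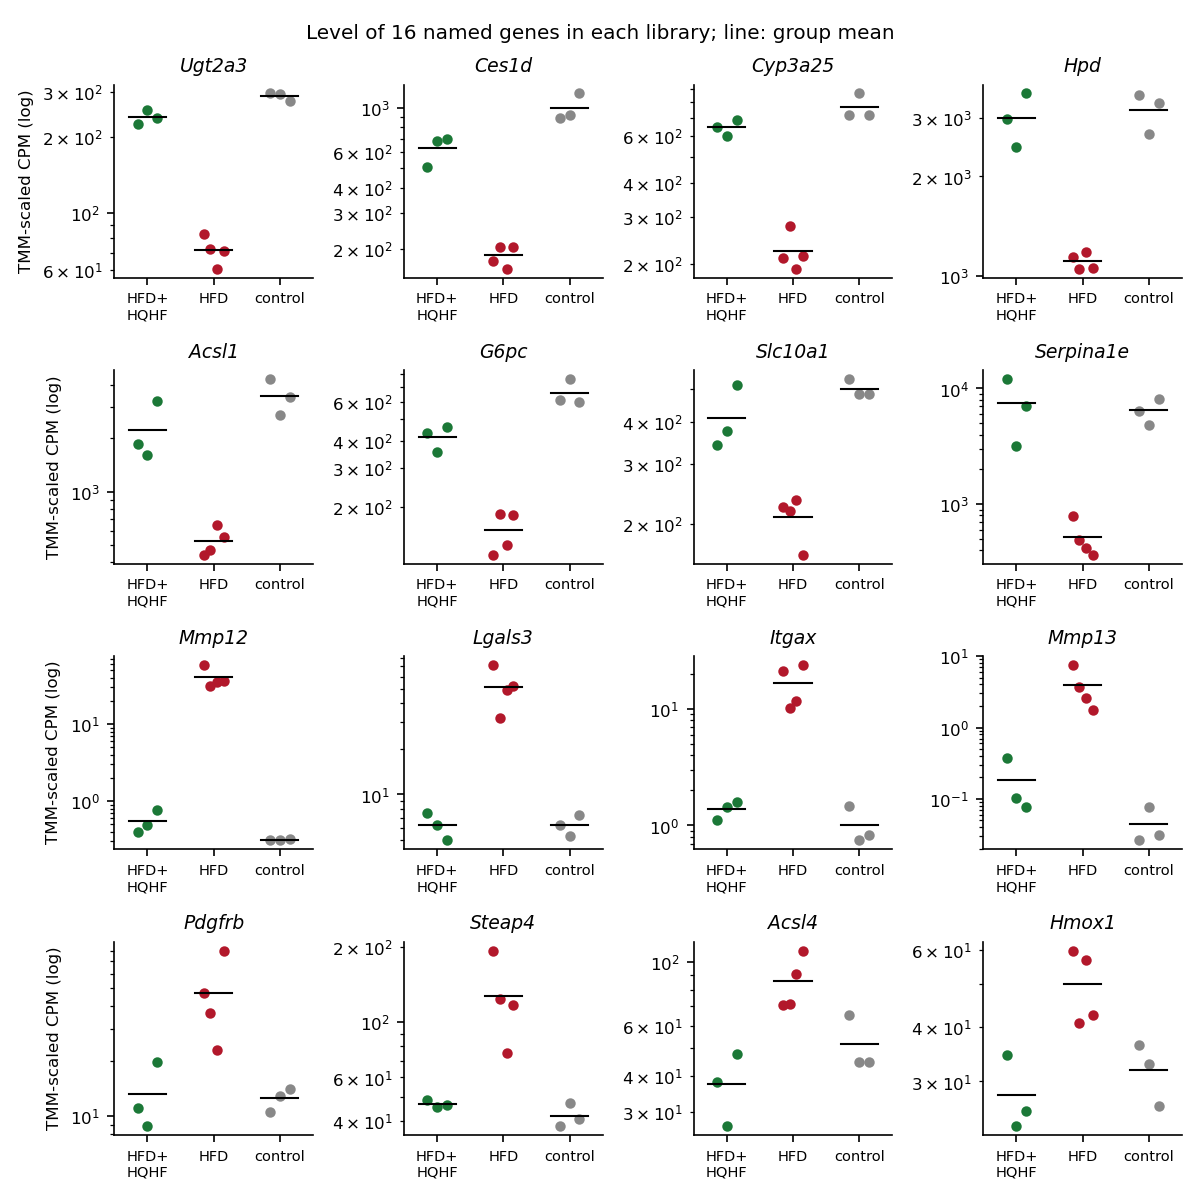
TMM-scaled CPM on a log axis of 16 named genes in the HFD plus HQHF (green), HFD (red) and control (grey) livers, with points for libraries and lines for group means. In each panel the HFD plus HQHF points are clear of the HFD points, above them in the upper 8 genes (Ugt2a3 at 226 to 256 CPM) and below them in the lower 8 (Mmp12 at no more than 0.758 CPM). For genes named for a small p, this separation was a condition of the choice.

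Genes of growth and acute stress also fell. Of 23 cell cycle genes, 10 fell (43.5%, beside 11.1% of all genes), at a list median of -1.71. They included the replication helicase subunits Mcm6 (log2 fold change -1.53, adjusted p = 0.00881), Mcm2 (-1.20, adjusted p = 0.0149) and Mcm5 (-1.16, adjusted p = 0.0479), Mki67, the Ki-67 antigen of dividing cells (-2.35, adjusted p = 0.0248), and Ccnd1, cyclin D1 (-1.88, adjusted p = 0.0154). Mcm6 was at 2.76, 3.73 and 2.95 CPM in the HFD plus HQHF libraries, against 10.6, 9.43, 4.94 and 11.5 CPM in the HFD libraries. HFD 3 was the lowest HFD library and lay above all HQHF values. The count of 10 was 1 without HFD plus HQHF 1 or 2, 4 without HFD plus HQHF 4, 5 without HFD 1 or 2 or control 3, 6 without HFD 4 or control 1 or 4, 18 without HFD 3. The call was lost for Mcm2 without HFD plus HQHF 1 or 2 (adjusted p up to 0.0592).

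Of 17 immediate early genes, which respond to stimuli within minutes, 8 fell and 0 rose. Egr2 (ENSMUSG00000037868), a zinc finger transcription factor, was at 0.144, 0.0522 and 0.0261 CPM in the HFD plus HQHF libraries, against 5.59, 2.63, 2.18 and 4.56 CPM in the HFD libraries (log2 fold change -5.63 ± 0.63 SE, adjusted p = 0.00178). The highest HQHF value was far below the lowest HFD value. Ier3 (-2.10, adjusted p = 0.00292), Klf6 (-1.87, adjusted p = 0.00412), Fos (-2.82, adjusted p = 0.0452), Fosb (-3.37, adjusted p = 0.027), Atf3 (-2.42, adjusted p = 0.0453), Nr4a1 (-2.10, adjusted p = 0.0462) and Klf4 (-1.20, adjusted p = 0.0347) were the rest. Without single libraries the count was 3 without HFD plus HQHF 1 or 2, 4 without HFD 2 or control 3, 5 without HFD plus HQHF 4 or HFD 3 or 4.

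Of 24 genes of ER stress and the ATF4 response, 6 fell and 0 rose. Psat1 (ENSMUSG00000024640), a serine synthesis enzyme, was at 0.804, 0.60 and 0.523 CPM in the HFD plus HQHF libraries, against 5.63, 14, 10.9 and 4.69 CPM in the HFD libraries (log2 fold change -3.78 ± 0.43 SE, adjusted p = 0.00178). Phgdh, the first enzyme of the same route, was at 0.115, 0.0782 and 0.235 CPM in the HFD plus HQHF libraries, against 1.39, 1.43, 3.06 and 1.72 CPM in the HFD libraries (-3.70 ± 0.67 SE, adjusted p = 0.00798). Both had low levels in every HQHF library. Ddit3, the CHOP transcription factor (-1.69, adjusted p = 0.0222), Ddit4 (-1.37, adjusted p = 0.0183), Trib3 (-1.04, adjusted p = 0.0421) and Atf3 fell as well. Of 19 p53 targets, 5 fell, among them Eda2r (-2.37, adjusted p = 0.00562), Phlda3 (-2.77, adjusted p = 0.00913) and Zmat3 (-1.05, adjusted p = 0.00681), and 2 rose, Ei24 (0.87, adjusted p = 0.0082) and Perp (0.42, adjusted p = 0.0346), of which Ei24 was at 0.31 and Perp at -0.13 under library totals. The ATF4 count of lower genes was 2 without HFD plus HQHF 1 or 2, and that of p53 targets 3 without HFD plus HQHF 1 or 2. The rising p53 targets numbered 1 without HFD plus HQHF 1 or 2 or HFD 1, 2 or 4. Lower genes made up 25% of the ATF4 list and 26.3% of the p53 targets, beside 11.1% of all genes. The share of p53 targets that rose, 10.5%, was near the 7.85% of all genes.

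On the other side stood enzymes of the hepatocyte. Of 31 genes of xenobiotic metabolism, 14 rose and 2 fell, at a median of 1.08. With library totals 9 rose and 4 fell. Ugt2a3 (ENSMUSG00000035780), a glucuronosyltransferase that was named for its small p and is no member of the list, was at 226, 256 and 238 CPM in the HFD plus HQHF libraries, against 82.6, 72.5, 60.3 and 71.3 CPM in the HFD libraries (log2 fold change 1.74 ± 0.15 SE, adjusted p = 0.000454). Ces1d (ENSMUSG00000056973), a carboxylesterase, was at 505, 679.9 and 699 CPM in the HFD plus HQHF libraries, against 175, 205, 159 and 203 CPM in the HFD libraries (1.76 ± 0.20 SE, adjusted p = 0.00178). Cyp3a25 (ENSMUSG00000029630), a cytochrome P450, was at 649.9, 598 and 688 CPM in the HFD plus HQHF libraries, against 211, 276, 192 and 215 CPM in the HFD libraries (1.53 ± 0.18 SE, adjusted p = 0.00207). In all 3 genes the lowest HQHF library was at more than 2 times the highest HFD library. Control levels were 298, 296 and 277 CPM for Ugt2a3, 885, 919 and 1176 CPM for Ces1d and 717, 864 and 715 CPM for Cyp3a25.

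Within the list, Cyp2c29 (log2 fold change 2.77, adjusted p = 0.0027), Cyp2c37 (2.10, adjusted p = 0.00967), Cyp2c50 (1.89, adjusted p = 0.00232) and Cyp2c54 (2.82, adjusted p = 0.00382) rose, and 9 other tested Cyp2c genes did not pass. The number of Cyp2c genes that rose was 4 in every leave-one-out fit. The nuclear receptors that switch on such enzymes, Nr1i2 (PXR, 1.11, adjusted p = 0.00669) and Nr1i3 (CAR, 1.33, adjusted p = 0.0132), rose, as did Por, the electron donor of microsomal P450 enzymes (1.35, adjusted p = 0.0399), and Cyp2e1 (1.55, adjusted p = 0.020). The 2 members that fell were Cyp2a4, described further on, and the glutathione transferase Gsta1 (-2.79, adjusted p = 0.0482). Near-identical copies exist for Cyp2c, Ces and Ugt genes, so reads may be split among them. The count of rising members was 9 without HFD plus HQHF 1, and that of falling members 0 without HFD plus HQHF 1, 2 or 4, HFD 2 or control 1, 3 or 4, 1 without HFD 1 or 4. The call was lost for Cyp2e1 without HFD plus HQHF 1 or 2 (adjusted p up to 0.0697).

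Besides these and Serpina1e, 4 genes completed the 8 with the smallest p among those that rose. Tlcd2 (ENSMUSG00000038217), a membrane lipid gene, was at 90.8, 68.4 and 78 CPM in the HFD plus HQHF libraries, against 22, 25, 22.9 and 23.1 CPM in the HFD libraries (log2 fold change 1.77 ± 0.15 SE, adjusted p = 0.000454). Afmid (ENSMUSG00000017718), arylformamidase of tryptophan breakdown, was at 153, 161 and 169.9 CPM in the HFD plus HQHF libraries, against 34, 45.5, 28.4 and 58.3 CPM in the HFD libraries (1.96 ± 0.22 SE, adjusted p = 0.00178). Ccs (ENSMUSG00000034108), the copper chaperone of superoxide dismutase, was at 219, 169 and 181 CPM in the HFD plus HQHF libraries, against 64.6, 58.8, 79 and 71.3 CPM in the HFD libraries (1.47 ± 0.15 SE, adjusted p = 0.00156). The HQHF values were more than 2 times the highest HFD value in each of them, and for Tlcd2 and Ccs they also lay above all control values (54.8, 44 and 61.5 CPM for Tlcd2, 142, 123 and 137 CPM for Ccs). Amacr, a racemase of branched fatty acids and bile acid precursors, rose as well (1.22 ± 0.15 SE, adjusted p = 0.00207). All 4 also passed under library totals.

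Amino acid breakdown had the second highest share of risers among the 43 lists, after the respiratory chain. Of 31 genes, 16 rose and 0 fell, at a median of 0.85, and library totals called 4 higher. Hpd (ENSMUSG00000029445), of tyrosine breakdown, was at 2971, 2456 and 3564 CPM in the HFD plus HQHF libraries, against 1147, 1052, 1180.3 and 1057 CPM in the HFD libraries (log2 fold change 1.43 ± 0.21 SE, adjusted p = 0.00391). The groups were well apart. Kmo (ENSMUSG00000039783), of the kynurenine route from tryptophan, was at 289, 247 and 353 CPM in the HFD plus HQHF libraries, against 103, 106, 133 and 144 CPM in the HFD libraries (1.28 ± 0.19 SE, adjusted p = 0.00394). Tdo2, which opens that route (0.95, adjusted p = 0.0147), Haao (1.02, adjusted p = 0.0369) and Kynu (0.75, adjusted p = 0.0432) rose too. Of the urea cycle, Otc (1.04, adjusted p = 0.00797), Asl (1.72, adjusted p = 0.0195) and Arg1 (1.00, adjusted p = 0.0224) rose, and Cps1 (0.28, adjusted p = 0.684) did not pass. The number of risers was 5 without HFD plus HQHF 1, 10 without HFD plus HQHF 4, and the call was lost for Tdo2 without HFD plus HQHF 1 (adjusted p = 0.0569).

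Of 29 genes of fatty acid oxidation and PPARA targets, 10 rose and 0 fell, at a median of 0.80 (under library totals 2 rose and 1 fell). Acsl1 (ENSMUSG00000018796), the acyl-CoA synthetase that activates fatty acids for oxidation in liver, was at 1852, 1604 and 3236 CPM in the HFD plus HQHF libraries, against 440.2, 466, 647 and 556 CPM in the HFD libraries (log2 fold change 2.08 ± 0.29 SE, adjusted p = 0.00352). No value overlapped, and HFD plus HQHF 4 was the highest library. Acaa1b, a peroxisomal thiolase, was at 706, 1148 and 1052 CPM in the HFD plus HQHF libraries, against 300.5, 227, 360.5 and 458 CPM in the HFD libraries (1.53 ± 0.29 SE, adjusted p = 0.00936). Ppara, the receptor that fatty acids activate (1.09, adjusted p = 0.00954), Cpt2 (0.94, adjusted p = 0.0224), Acaa2 (0.86, adjusted p = 0.00969) and Slc25a20 (1.13, adjusted p = 0.024) rose. Cpt1a, which admits fatty acids to mitochondria, was at 919, 615 and 1571 CPM in the HFD plus HQHF libraries, against 361, 341, 694 and 979.9 CPM in the HFD libraries and did not pass (0.80, adjusted p = 0.178). The HFD 3 and HFD 4 values lay within the HQHF range. The number of risers was 5 without HFD 1, 6 without HFD plus HQHF 1, 2 or 4, 18 without HFD 3.

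Respiratory chain genes of the nucleus rose by small amounts. Of 33, 20 rose and 0 fell, at a median of 0.59. The largest was Ndufb9 of complex I, at 231, 232 and 159.8 CPM in the HFD plus HQHF libraries, against 101, 98.8, 120.0 and 82.2 CPM in the HFD libraries (log2 fold change 1.04 ± 0.19 SE, adjusted p = 0.00798). With library totals 0 of them was called and the median was 0.03, beside -0.62 for all genes. Proteasome genes behaved alike, with 12 of 28 higher at a median of 0.53, led by Psma5 (0.85, adjusted p = 0.0136), and with 0 called and a median of -0.03 under totals. Psmb2, at 0.51 with TMM, turned to -0.04. Counts without single libraries were 1 without HFD plus HQHF 1, 3 without HFD plus HQHF 2, 8 without HFD 4, 9 without HFD 1 or 2 for the respiratory chain, and 0 without HFD plus HQHF 1, 1 without HFD plus HQHF 2, 2 without HFD 1 or 4, 3 without HFD 2, 23 without HFD 3 for the proteasome. For both genes the call was lost, Psma5 without HFD plus HQHF 1 or 2 (adjusted p up to 0.0593), Psmb2 without HFD plus HQHF 1 or 2 (adjusted p up to 0.0638). The 13 mitochondrially encoded genes and the 38 ribosomal protein genes had no call, with medians of 0.37 and 0.18 that turned to -0.16 and -0.38 under totals.

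**Figure D5:**
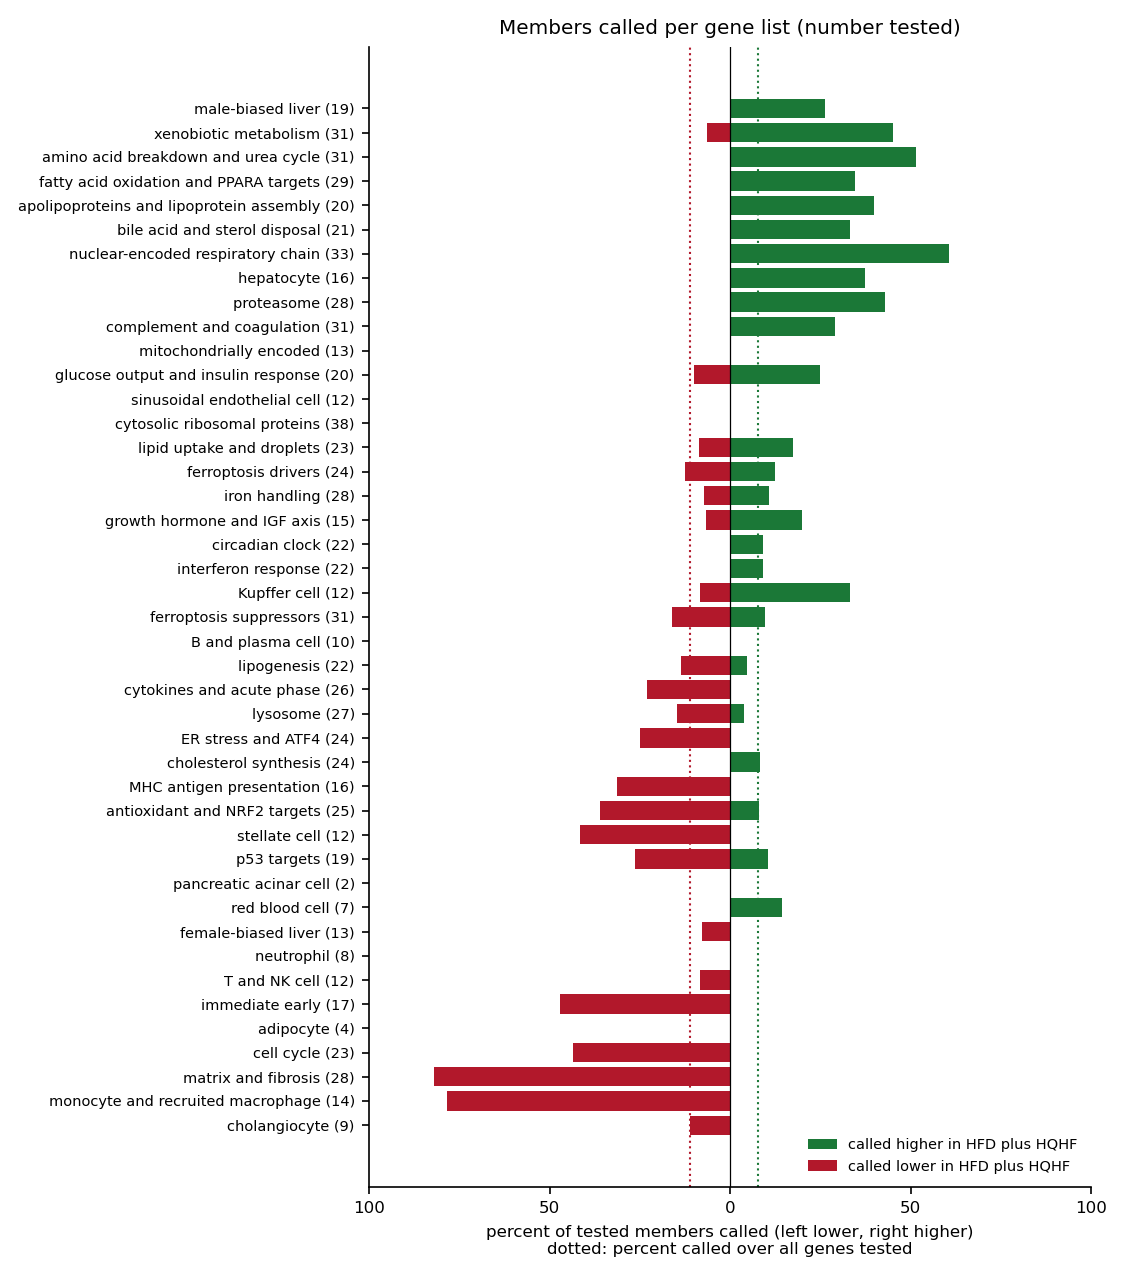
Percent of tested members called higher (right, green) or lower (left, red) in HFD plus HQHF against HFD for 43 gene lists, sorted by median log2 fold change, with the number tested in brackets and dotted lines at the share over all genes (7.85% higher, 11.1% lower). Matrix and recruited macrophage lists reach furthest to the left, and the nuclear-encoded respiratory chain and amino acid breakdown furthest to the right.

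Secreted and sterol-handling products of hepatocytes rose in part. Of 21 bile acid and sterol disposal genes, 7 rose (33.3%, beside 7.85% of all genes), and library totals called 1 higher and 1 lower. Slc10a1 (ENSMUSG00000021135), the bile acid importer NTCP, was at 343, 376 and 515 CPM in the HFD plus HQHF libraries, against 224, 218, 235 and 162 CPM in the HFD libraries (log2 fold change 0.97 ± 0.20 SE, adjusted p = 0.011). HFD 4 was lowest, and no value overlapped. The others were Cyp8b1, the sterol 12-hydroxylase (2.11, adjusted p = 0.0159), the conjugating enzymes Baat (0.79, adjusted p = 0.0161) and Slc27a5 (1.07, adjusted p = 0.0266), Akr1d1 (0.80, adjusted p = 0.0432), the sterol exporter subunit Abcg8 (0.71, adjusted p = 0.0349) and the bile acid receptor Nr1h4 (0.79, adjusted p = 0.0147). Cyp7a1, the rate-limiting enzyme of bile acid synthesis, was at 90.5, 73.3 and 36.6 CPM in the HFD plus HQHF libraries, against 13.5, 74.7, 54.3 and 57.7 CPM in the HFD libraries, with overlap and no call (0.42, adjusted p = 0.631). The number of risers was 1 without HFD plus HQHF 1, 3 without HFD plus HQHF 4, 4 without HFD plus HQHF 2. The call was lost for Nr1h4 without HFD plus HQHF 1 or 2 (adjusted p up to 0.067).

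Of 20 apolipoprotein and lipoprotein assembly genes, 8 rose, among them Apoc1 (log2 fold change 1.22, adjusted p = 0.00969), Apom (1.06, adjusted p = 0.00975), Apoc3 (1.04, adjusted p = 0.00975) and Apoa2 (1.08, adjusted p = 0.0169). Apob, the structural protein of very low density lipoprotein, was at 5379.7, 6028 and 13557 CPM in the HFD plus HQHF libraries, against 11488, 11382, 6443 and 10331 CPM in the HFD libraries, with overlap (-0.25, adjusted p = 0.645). Of 31 complement and coagulation genes, 9 rose, among them C8a (1.35, adjusted p = 0.00517), C8b (1.59, adjusted p = 0.016), the lectins Mbl1 (0.99, adjusted p = 0.0273) and Mbl2 (1.12, adjusted p = 0.0459), and the clotting factors F7 (0.86, adjusted p = 0.0437), F9 (0.67, adjusted p = 0.0335) and F10 (0.81, adjusted p = 0.0186). None of either list fell with TMM, while library totals gave 2 higher and 4 lower for the first list, and 3 and 2 for the second, whose median turned to -0.05. Without single libraries the first count was 3 without HFD plus HQHF 1, 4 without HFD plus HQHF 2, 5 without HFD plus HQHF 4 or HFD 4, and the second 2 without HFD plus HQHF 1, 5 without HFD plus HQHF 2 or 4. With all 10 libraries the risers were 40% of the first list and 29% of the second, beside 7.85% of all genes.

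Of 20 genes of glucose output and insulin response, 5 rose and 2 fell (25% and 10%, beside 7.85% and 11.1% of all genes). G6pc (ENSMUSG00000078650), glucose-6-phosphatase, which releases glucose from the liver, was at 433, 355 and 463 CPM in the HFD plus HQHF libraries, against 122, 187, 136 and 184 CPM in the HFD libraries (log2 fold change 1.41 ± 0.21 SE, adjusted p = 0.00387). It was clearly separated between the groups. Pck1 of gluconeogenesis (1.15, adjusted p = 0.0381), Irs2 (0.70, adjusted p = 0.0455), Creb3l3 (1.07, adjusted p = 0.0129) and Trib1 (0.60, adjusted p = 0.0301) rose, and Trib3 was among those that fell. The list median of 0.30 turned to -0.25 under totals, with 1 higher and 3 lower. Risers numbered 2 without HFD plus HQHF 1, 2 or 4 or HFD 1 or 2, 3 without HFD 3 or control 4, and fallers 0 without HFD plus HQHF 1 or 2, HFD 1 or 2 or control 3, 1 without HFD plus HQHF 4, HFD 4 or control 1 or 4. Calls were lost for Creb3l3 without HFD plus HQHF 1 (adjusted p = 0.0504).

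Among called genes of at least 1 CPM without overlap, the largest increases were in Mup genes, pheromone carriers that male mouse liver makes under pulsed growth hormone. Of 21 tested, 12 rose and 0 fell, at a median of 4.27, and 9 passed under library totals. Mup7 (ENSMUSG00000073842) was at 20089, 6695 and 10956 CPM in the HFD plus HQHF libraries, against 191, 92.6, 311 and 0.241 CPM in the HFD libraries (log2 fold change 6.40 ± 1.54 SE, adjusted p = 0.0233). Mup15 (ENSMUSG00000096674) was at 4978, 561 and 2513 CPM in the HFD plus HQHF libraries, against 6.45, 1.62, 25.9 and 0.103 CPM in the HFD libraries (8.30 ± 1.82 SE, adjusted p = 0.0183). HFD 4 was lowest in both, near or below 1 CPM, and HFD plus HQHF 1 was highest, as in control 1 (13706, 4487 and 4698 CPM of Mup7 in controls 1, 3 and 4). Mup genes are near-identical copies, so counts of single members are uncertain and the shared change is not 12 separate ones. The number of rising Mup genes was 1 without HFD plus HQHF 1, 2 without HFD plus HQHF 2, 3 without HFD 2, 6 without HFD 1. Among named members the call was lost for Mup7 without HFD plus HQHF 1 or 2 or HFD 1 or 2 (adjusted p up to 0.0724), Mup15 without HFD plus HQHF 1 (adjusted p = 0.0644).

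The list of male-biased genes, which includes Mup1, Mup3, Mup7 and Mup20, had 5 that rose and 0 that fell of 19 tested, and all 19 had a positive value, at a median of 2.10. With library totals 5 rose. Mup3 and Mup7 are 2 of the risers, already counted above, and Serpina1e, Susd4 and Cyp2d9 the other 3. Serpina1e (ENSMUSG00000072849), an alpha-1-antitrypsin copy, was at 12065, 3174 and 7089.9 CPM in the HFD plus HQHF libraries, against 791, 492, 417 and 367 CPM in the HFD libraries (log2 fold change 3.85 ± 0.46 SE, adjusted p = 0.00207). Susd4 was at 39, 26.6 and 43.1 CPM in the HFD plus HQHF libraries, against 9.42, 7.0, 7.8 and 1.15 CPM in the HFD libraries (2.51 ± 0.53 SE, adjusted p = 0.0146). Cyp2d9, a P450 of male liver, was at 1614, 1166 and 2426 CPM in the HFD plus HQHF libraries, against 634, 404, 293 and 82.5 CPM in the HFD libraries (2.30 ± 0.53 SE, adjusted p = 0.0173). The 2 groups did not overlap in any of these genes. Female-biased genes had 0 higher and 1 lower of 13, a lower share of 7.69% beside 11.1% of all genes. Cyp2a4, a testosterone hydroxylase of female liver, was at 0, 0.0782 and 0 CPM in the HFD plus HQHF libraries, against 2.9, 6.53, 0.137 and 116 CPM in the HFD libraries. It was 1233-fold lower by its 3 reads with HQHF and 7249 reads in HFD (95% counting interval 422 to 5980.1), and nearly all of this came from HFD 4. Male-biased risers were 1 without HFD plus HQHF 1, 3 without HFD plus HQHF 2. The fits that lost a call were, for Susd4 without HFD plus HQHF 1 (adjusted p = 0.0566), Cyp2a4 without HFD plus HQHF 1, 2 or 4, HFD 2 or control 1, 3 or 4 (adjusted p up to 0.17).

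In the growth hormone axis, Igf1, its main secreted product, was at 441, 433 and 366 CPM in the HFD plus HQHF libraries, against 193, 192, 253 and 277 CPM in the HFD libraries (log2 fold change 0.85 ± 0.18 SE, adjusted p = 0.0128), Ghr, the growth hormone receptor, rose (0.86, adjusted p = 0.0404) and so did Igfbp4 (0.73, adjusted p = 0.0378), while Igf1r fell (-1.17, adjusted p = 0.042). The HQHF values of Igf1 lay above all HFD values. These 4 were the called genes of 15 tested, 20% higher and 6.67% lower, beside 7.85% and 11.1% of all genes. With library totals 0 rose and 4 fell. Risers numbered 0 without HFD plus HQHF 1, 1 without HFD plus HQHF 2 or HFD 2, and 1 gene of the list was called lower without HFD 1 or HFD 2 and 0 without any other library. Single calls were lost too, of Igf1 without HFD plus HQHF 1 (adjusted p = 0.0569), Igfbp4 without HFD plus HQHF 1, 2 or 4 or HFD 1, 2 or 3 (adjusted p up to 0.114).

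Ferroptosis genes moved in both directions. Drivers, which promote it, had 3 higher and 3 lower of 24, and suppressors 3 higher and 5 lower of 31. These shares are near those over all genes (7.85% higher, 11.1% lower). Acsl4 (ENSMUSG00000031278), which loads membranes with peroxidable fatty acids, was at 38.3, 26.8 and 47.8 CPM in the HFD plus HQHF libraries, against 70.5, 71.4, 90.6 and 109 CPM in the HFD libraries (log2 fold change -1.18 ± 0.24 SE, adjusted p = 0.0115). Slc7a11 (ENSMUSG00000027737), the cystine importer that feeds glutathione synthesis, was at 0, 0 and 0.0261 CPM in the HFD plus HQHF libraries, against 3.56, 5.96, 0.608 and 2.05 CPM in the HFD libraries. It was 341-fold lower by its 1 read with HQHF and 669 reads in HFD (95% counting interval 61.1 to 13503), and its partner Slc3a2 also fell (-0.87, adjusted p = 0.0256). Hmox1 (ENSMUSG00000005413), haem oxygenase, was at 34.5, 23.7 and 25.7 CPM in the HFD plus HQHF libraries, against 59.7, 40.9, 56.7 and 42.5 CPM in the HFD libraries (-0.84 ± 0.20 SE, adjusted p = 0.0177). For these 3 genes no HQHF value reached the lowest HFD value. Calls were lost for Acsl4 without HFD plus HQHF 1 (adjusted p = 0.0516), Hmox1 without HFD plus HQHF 2 or 4 (adjusted p up to 0.0802).

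Gpx4, the peroxidase that removes lipid hydroperoxides, was at 282, 272 and 223 CPM in the HFD plus HQHF libraries, against 240.2, 241, 334 and 296 CPM in the HFD libraries. The groups overlapped, and no call was made (log2 fold change -0.10 ± 0.29 SE, adjusted p = 0.828). The other drivers that fell were Trp53 (-0.73, adjusted p = 0.0371) and Cyb5r1 (-0.78, adjusted p = 0.0387), and those that rose were Atg5, of autophagy (0.73, adjusted p = 0.00804), Sat2 (0.98, adjusted p = 0.00622) and Por. Suppressors that rose were Gch1, which makes tetrahydrobiopterin (1.20, adjusted p = 0.00391), Cisd1 (0.99, adjusted p = 0.0091) and Prdx6 (0.75, adjusted p = 0.0134), and the phospholipid acyltransferases Mboat1 (-3.16, adjusted p = 0.0271) and Mboat2 (-3.94, adjusted p = 0.0377) fell. Drivers that fell numbered 0 without HFD plus HQHF 1, 1 without HFD plus HQHF 2, 5 without HFD 3, and suppressors that fell 2 without HFD plus HQHF 1 or 2, 3 without HFD plus HQHF 4 or HFD 1. With totals the drivers had 0 higher and 10 lower, and the suppressors 1 and 13.

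Of 28 iron genes, 3 rose and 2 fell, shares near those of all genes (7.85% and 11.1%). Steap4 (ENSMUSG00000012428), a metalloreductase, was at 48.9, 45.5 and 46.6 CPM in the HFD plus HQHF libraries, against 194, 124, 75.1 and 118 CPM in the HFD libraries (log2 fold change -1.44 ± 0.26 SE, adjusted p = 0.00816). Slc11a2, the iron importer DMT1, was at 16.6, 18.6 and 21.7 CPM in the HFD plus HQHF libraries, against 53.5, 48.3, 25.3 and 38.4 CPM in the HFD libraries (-1.13 ± 0.23 SE, adjusted p = 0.012). Each fell without overlap. The transferrin receptor Tfrc was at 11.1, 14.9 and 21.3 CPM in the HFD plus HQHF libraries, against 25.8, 26.9, 18.1 and 98.7 CPM in the HFD libraries, did not pass (-1.43, adjusted p = 0.0936) and was high in HFD 4 alone. Without HFD 3 it did pass. The ferritin heavy chain Fth1 was at 1000.4, 1291 and 896 CPM in the HFD plus HQHF libraries, against 1158, 1337, 1128 and 1051 CPM in the HFD libraries (-0.14, adjusted p = 0.662), with overlap. The risers were Hfe (0.46, adjusted p = 0.0425), Ireb2 (0.51, adjusted p = 0.0476) and Bmp2 (0.62, adjusted p = 0.031). Their number was 0 without HFD plus HQHF 1 or 4 or HFD 1 or 4, 1 without HFD plus HQHF 2, HFD 2 or control 1, and under totals 0 rose and 10 fell. The call was lost for Slc11a2 without HFD plus HQHF 1 or 2 (adjusted p up to 0.0602).

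Antioxidant genes and NRF2 targets fell in 9 of 25 and rose in 2 (36% and 8%, beside 11.1% and 7.85% of all genes). Cbr3 (ENSMUSG00000022947), a carbonyl reductase, was at 0.632, 0.704 and 0.654 CPM in the HFD plus HQHF libraries, against 9.55, 9.04, 2.84 and 5.21 CPM in the HFD libraries (log2 fold change -3.32 ± 0.42 SE, adjusted p = 0.00246). G6pdx, the first enzyme of the pentose phosphate path, was at 7.29, 5.95 and 6.12 CPM in the HFD plus HQHF libraries, against 19.2, 12.5, 26 and 16.7 CPM in the HFD libraries (-1.53 ± 0.23 SE, adjusted p = 0.00394). Its highest value was in HFD 3, the library with fat-like RNA, and it also passed without that library. Pgd of the same path (-1.43, adjusted p = 0.00816), Srxn1 (-0.92, adjusted p = 0.0256), the exporter Abcc4 (-1.39, adjusted p = 0.0149) and the glutathione transferases Gstm3 (-5.04, adjusted p = 0.0383) and Gsta1 fell as well, besides Slc7a11 and Hmox1. The superoxide dismutases Sod1 (0.99, adjusted p = 0.016) and Sod2 (0.63, adjusted p = 0.0202) rose, and were at 0.43 and 0.08 under totals. The number that fell was 5 without HFD plus HQHF 1 or 2, and the number that rose 0 without HFD plus HQHF 1 or 2.

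Lipid storage genes changed little as a group. Of 22 lipogenesis genes, 1 rose and 3 fell (4.55% and 13.6%), shares near those of all genes (7.85% and 11.1%). Scd2 (ENSMUSG00000025203), a fatty acid desaturase, was at 7.06, 6.08 and 5.52 CPM in the HFD plus HQHF libraries, against 45.2, 20.3, 73 and 37.5 CPM in the HFD libraries (log2 fold change -2.82 ± 0.36 SE, adjusted p = 0.0027). Acly, which makes cytosolic acetyl-CoA (-0.88, adjusted p = 0.0268), and Pnpla3, a lipid droplet protein (-2.15, adjusted p = 0.0382), fell, and Agpat2 rose (0.57, adjusted p = 0.0296). Fasn, fatty acid synthase, was at 34.1, 42.3 and 107 CPM in the HFD plus HQHF libraries, against 429, 1016, 122 and 72.4 CPM in the HFD libraries and did not pass (-2.74, adjusted p = 0.0595). Within HFD the values of Fasn spread widely and HFD 4 overlapped the HQHF group, and Fasn passed without HFD 3 or without HFD 4. Scd1, the main liver desaturase, was at 92.7, 226 and 2334 CPM in the HFD plus HQHF libraries, against 1926, 1114, 418 and 333 CPM in the HFD libraries, with wide overlap (-0.10, adjusted p = 0.955). With totals 0 rose and 9 fell. The call was lost for Acly without HFD plus HQHF 1 or 2 or HFD 1 (adjusted p up to 0.11). Fallers numbered 1 without HFD plus HQHF 1 or 2 or HFD 1, 5 without HFD 3 or 4, and the count of risers was 1 without HFD 2, HFD 3 or a control library and 0 without any other.

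Of 23 genes of lipid uptake and droplets, 4 rose and 2 fell (17.4% and 8.7%, beside 7.85% and 11.1% of all genes). Cd36 (ENSMUSG00000002944), a fatty acid translocase of macrophages, fat cells and steatotic hepatocytes, was at 64.5, 91 and 38.3 CPM in the HFD plus HQHF libraries, against 142, 106, 225 and 225 CPM in the HFD libraries (log2 fold change -1.43 ± 0.34 SE, adjusted p = 0.0186). HFD 3 and HFD 4 were the highest. Slc27a2 (ENSMUSG00000027359), a fatty acid transporter of hepatocytes, was at 1843, 1506 and 2323 CPM in the HFD plus HQHF libraries, against 551, 524, 980.4 and 784 CPM in the HFD libraries (1.41 ± 0.28 SE, adjusted p = 0.0101). The droplet coat gene Plin3 fell (-0.82, adjusted p = 0.0207), and Mgll (0.98, adjusted p = 0.0323) and Fitm2 (0.92, adjusted p = 0.0318) rose beside Slc27a5. With totals 1 rose and 3 fell. Risers numbered 1 without HFD plus HQHF 1, 2 without HFD plus HQHF 2 or 4 or HFD 1, 2 or 4, 7 without HFD 3, and fallers 0 without HFD plus HQHF 1, 1 without HFD plus HQHF 2 or 4. Cholesterol synthesis had 2 risers of 24, Hsd17b7 (1.09, adjusted p = 0.0126) and Ebp (0.84, adjusted p = 0.028), while its median was -0.38. That share is near the 7.85% of all genes, and library totals gave 0 higher and 10 lower. Risers of that list numbered 1 without HFD plus HQHF 1, 2 or 4 or HFD 4, and fallers 4 without HFD 3. Calls were lost for Cd36 without HFD plus HQHF 1 or 4 (adjusted p up to 0.0724), Ebp without HFD plus HQHF 1, 2 or 4 or HFD 4 (adjusted p up to 0.0757).

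Several genes fell to almost no read with HQHF. Among called genes with an ordinary symbol, at least 1 CPM in HFD and no overlap, the 12 with the lowest fitted log2 fold changes were Cyp2a4, Slc7a11 and Gpnmb, given above, and Eef1a2, an elongation factor of muscle and nerve, Fbn2, fibrillin 2, Rasal1, Areg, the growth factor amphiregulin, Aqp7, a glycerol channel of fat cells, Dlg2, Zfp469, Lrrc55 and the receptor gene Vmn2r3. Eef1a2 was at least 60.7-fold lower and Dlg2 was at 0, 0.0522 and 0.0784 CPM in the HFD plus HQHF libraries, against 0.384, 0.349, 19.8 and 1.34 CPM in the HFD libraries, both highest in HFD 3. Fbn2 was at 0.0287, 0 and 0.0261 CPM in the HFD plus HQHF libraries, against 0.932, 0.662, 0.157 and 18 CPM in the HFD libraries and Rasal1 at 0, 0.0261 and 0 CPM in the HFD plus HQHF libraries, against 1.39, 0.386, 0.647 and 8.05 CPM in the HFD libraries, both highest in HFD 4. Aqp7 was 133-fold lower by its 2 reads with HQHF and 520 reads in HFD (95% counting interval 36.5 to 1098), Areg 155-fold lower by its 1 read with HQHF and 303 reads in HFD (95% counting interval 27.5 to 6127) and Zfp469 121-fold lower by its 2 reads with HQHF and 475 reads in HFD (95% counting interval 33.4 to 1004). Vmn2r3 was at least 48.1-fold lower, and Lrrc55 121-fold lower by its 1 read with HQHF and 237 reads in HFD (95% counting interval 21.5 to 4796). The calls were lost for Eef1a2 without HFD plus HQHF 1, 2 or 4, HFD 1 or control 3 or 4 (adjusted p up to 0.11), Dlg2 without HFD plus HQHF 1, 2 or 4, HFD 4 or control 1, 3 or 4 (adjusted p up to 0.141), Fbn2 without HFD plus HQHF 1, 2 or 4 or control 3 (adjusted p up to 0.122), Rasal1 without HFD plus HQHF 1 or 2 (adjusted p up to 0.0605), Areg without HFD plus HQHF 1 or 2 (adjusted p up to 0.0542), Aqp7 without HFD plus HQHF 1 (adjusted p = 0.0505), Vmn2r3 without HFD plus HQHF 1, 2 or 4 (adjusted p up to 0.073), Lrrc55 without HFD plus HQHF 1 or 2 (adjusted p up to 0.0581). Among genes that rose, Dct, a melanin enzyme, was at 5.28, 2.79 and 1.1 CPM in the HFD plus HQHF libraries, against 0.0913, 0.129, 0.196 and 0 CPM in the HFD libraries (log2 fold change 4.86 ± 0.85 SE, adjusted p = 0.00745), and Hmga1b at 1.52, 1.07 and 0.941 CPM in the HFD plus HQHF libraries, against 0, 0.276, 0 and 0 CPM in the HFD libraries (4.04 ± 1.22 SE, adjusted p = 0.0437), which were both low levels. For Hmga1b the call was lost in 8 of the 10 fits without a library.

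Markers of other cells gave few calls with all 10 libraries. Sinusoidal endothelial markers had 0 higher and 0 lower of 12, with Clec4g at log2 fold change 0.70, adjusted p = 0.0597. Of 9 cholangiocyte markers Krt7 fell (-4.11, adjusted p = 0.0338), all 9 had a negative value at a median of -3.38, and the list summed to 31.7 to 42.3 CPM in HFD plus HQHF, against 29.2 to 432 CPM in HFD, high in HFD 1 and HFD 4. The number of cholangiocyte markers that fell was 0 without HFD plus HQHF 1, 2 or 4, HFD 1 or 4 or control 3, 2 without HFD 2, 8 without HFD 3. Il7r was the T and NK cell marker that fell of 12 (-3.04, adjusted p = 0.011). Lower members made up 11.1% of the cholangiocyte and 8.33% of the T and NK cell markers, no more than the 11.1% of all genes. The 10 B cell, 8 neutrophil, 4 adipocyte and 2 acinar markers tested had no call. The full acinar list summed to 2445 CPM in control 1, which shares the estimate of spread, against 4.37 to 22 CPM in the other libraries used. Without control 1, 2404 genes were called. Of 7 red cell genes Alas2, of haem synthesis, rose (0.84, adjusted p = 0.0453) while Hba-a1, a globin gene, was at -1.45, adjusted p = 0.182. Interferon genes had 2 risers of 22, Irf9 (0.95, adjusted p = 0.0063) and Rtp4 (0.73, adjusted p = 0.0479), and clock genes 2 of 22, among them Hlf (0.60, adjusted p = 0.0335), shares near the 7.85% of all genes, while totals gave 0 higher and 6 lower for interferon and 0 and 3 for clock genes. Calls were lost for Krt7 without HFD plus HQHF 1, 2 or 4, HFD 1 or 4 or control 3 (adjusted p up to 0.121), Il7r without HFD plus HQHF 2 (adjusted p = 0.0523), Alas2 without HFD plus HQHF 1, 2 or 4, HFD 2 or 4 or control 1 or 4 (adjusted p up to 0.143), Rtp4 without HFD plus HQHF 1 or 2, HFD 1, 2, 3 or 4 or control 4 (adjusted p up to 0.17), Hlf without HFD plus HQHF 1 or 2 or HFD 1, 2 or 4 (adjusted p up to 0.134).

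Of the 10 genes with the most counts, Cyp2e1 was called, and Alb, on which the libraries were selected, is not compared. Nemf averaged 112905 ± 31447 CPM in HFD plus HQHF and 46158 ± 5405 CPM in HFD (SD, n = 3 and 4). Every HQHF value lay above every HFD value, but it did not pass (log2 fold change 1.29, adjusted p = 0.0828), except without control 1 or control 4. Transferrin, Trf (0.07, adjusted p = 0.914), complement C3 (0.05, adjusted p = 0.944), Apoe (0.74, adjusted p = 0.0529), Mup22 (3.05, adjusted p = 0.0765), mt-Co1 (0.59, adjusted p = 0.198), Lars2 (0.78, adjusted p = 0.0916) and Apob did not pass, and Mup22 passed without HFD 4. Of the 16 hepatocyte markers, which include Alb, 6 rose (Alb not among them) and 0 fell, at a median of 0.58. Library totals gave 3 and 0 with a median of 0.03. The number of risers was 2 without HFD plus HQHF 1, 3 without HFD plus HQHF 2.

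The promoters of called genes were read for short motifs, in windows of 250 bases before to 50 after the start of transcription from RefSeq (GRCm38.p6, not the build of the counts). Of the tested genes 10737 had a window, and both strands were searched. The CCAAT box, CCAAT, was present in 45.1% of genes called higher, 38.7% of those called lower and 42.8% of all, and in 58.5% of the 106 genes with a window that were called higher under both scalings. The AP-1 site, TGANTCA, to which Fos proteins bind, was in 8.97% of genes called lower, 8.30% of those called higher and 6.71% of all, and in 10.4% of the 106. The ETS site, CCGGAAG, was in 9.31% of genes called lower, 19.1% of those called higher and 18.6% of all, and in 2.83% of the 106. The E-box CACGTG was in 10.1% of genes called lower, 8.77% of those called higher and 11.1% of all, and in 4.72% of the 106. The TATA box, TATAAA, was in 10.7% of genes called lower, 11.1% of those called higher and 9.60% of all, and in 19.8% of the 106. These shares are descriptions without a test.

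For 3 genes in each direction from the 8 with the smallest p, a window that holds an AP-1 site (lower genes) or a CCAAT box (higher genes) is given 5′ to 3′ along the gene, as an example of where it lies. For the genes that fell, capitals mark matches to the AP-1 site on either strand.
Mmp12, plus strand, chr9:7347124-7347423: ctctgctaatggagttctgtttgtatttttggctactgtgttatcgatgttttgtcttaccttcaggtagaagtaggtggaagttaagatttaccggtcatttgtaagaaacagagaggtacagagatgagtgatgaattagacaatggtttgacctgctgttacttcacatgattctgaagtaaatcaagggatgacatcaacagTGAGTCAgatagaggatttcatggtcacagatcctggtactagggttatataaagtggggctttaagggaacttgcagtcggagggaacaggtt
Anxa2, plus strand, chr9:69453433-69453732: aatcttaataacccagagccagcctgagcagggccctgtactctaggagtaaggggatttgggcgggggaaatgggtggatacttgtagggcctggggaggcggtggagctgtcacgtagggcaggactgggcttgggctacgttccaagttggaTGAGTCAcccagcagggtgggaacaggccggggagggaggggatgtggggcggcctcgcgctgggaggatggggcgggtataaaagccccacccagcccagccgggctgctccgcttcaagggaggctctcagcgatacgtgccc
Itgax, plus strand, chr7:128129300-128129599: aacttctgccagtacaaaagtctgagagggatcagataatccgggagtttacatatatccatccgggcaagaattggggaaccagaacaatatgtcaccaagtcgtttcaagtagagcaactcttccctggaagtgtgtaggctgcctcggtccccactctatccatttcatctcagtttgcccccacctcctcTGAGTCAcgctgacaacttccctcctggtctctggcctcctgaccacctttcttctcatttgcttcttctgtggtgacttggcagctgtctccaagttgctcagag
For the genes that rose, capitals mark matches to the CCAAT box on either strand.
Tlcd2, plus strand, chr11:75467800-75468099: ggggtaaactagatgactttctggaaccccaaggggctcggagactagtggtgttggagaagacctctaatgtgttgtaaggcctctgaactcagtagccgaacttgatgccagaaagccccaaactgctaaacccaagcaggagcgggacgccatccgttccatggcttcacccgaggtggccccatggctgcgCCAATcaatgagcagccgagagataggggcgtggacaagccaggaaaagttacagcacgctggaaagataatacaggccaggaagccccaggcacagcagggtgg
Ugt2a3, minus strand, chr5:87337146-87337445: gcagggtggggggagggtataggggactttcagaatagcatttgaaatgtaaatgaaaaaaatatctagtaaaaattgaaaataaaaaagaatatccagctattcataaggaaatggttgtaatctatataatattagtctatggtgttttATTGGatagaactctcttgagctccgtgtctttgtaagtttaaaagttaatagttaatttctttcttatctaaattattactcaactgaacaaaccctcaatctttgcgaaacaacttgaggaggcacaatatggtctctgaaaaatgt
Serpina1e, minus strand, chr12:103956848-103957147: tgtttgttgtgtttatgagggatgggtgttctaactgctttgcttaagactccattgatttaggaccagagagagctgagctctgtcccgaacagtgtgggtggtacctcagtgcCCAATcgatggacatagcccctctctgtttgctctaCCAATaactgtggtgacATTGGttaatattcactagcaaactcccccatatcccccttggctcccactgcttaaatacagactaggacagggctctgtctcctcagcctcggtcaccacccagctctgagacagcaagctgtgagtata
Another such window, of Epb41l1, holds 2 AP-1 matches, and those of Cyp3a25 a CCAAT box. The first Mmp12 window in RefSeq and the windows of Adam8 and Lgals3 hold no AP-1 match, though the last 2 hold a CCAAT box, and that of Afmid no CCAAT box. The Mmp12 and Anxa2 windows also hold a TATA box and that of Itgax a CCAAT box, left in lower case, and no motif overlapped another. A match says only that the letters are there.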

How the data were processed

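Total RNA of mouse liver was extracted with TRIzol and sequenced after ribosomal depletion with a stranded total RNA kit, per the labels' protocols. The authors deposited a table of counts per gene, whole numbers without normalization, for 12 libraries. The submitters' processing notes name HISAT2, RSEM and the build GRCm39 with no versions, and the strand setting of the counting is not given in the sources used here. The counting rule for reads that fit several genes is not given either. The other 12 libraries hold small RNA and were not used here. Columns without a sample numbered 0.

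Libraries with Alb under 1000 CPM of the total were left out, as the choice of members required. Counts were filtered with filterByExpr, scaled by TMM and fitted with edgeR 4.0.16 (limma 3.58.1, R 4.3.3): 1 quasi-likelihood model with robust dispersion over the 10 libraries of 3 groups, tested for HFD plus HQHF against HFD. The threshold for a call was 0.05 after Benjamini-Hochberg adjustment. Levels are TMM-scaled CPM, SE is the log2 fold change over the root of its F value, and PCA used the 500 most variable genes. Of 18227 Ensembl IDs, 18160 were found in the RefSeq gene table. The p-values measure the spread between the single mice sampled. Depth was 36198931 to 46454404 counts per library, and intervals and floors (3 counts) cover counting error only.

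The members and the 43 lists were chosen with earlier results of these data known. Named were, among called genes with at least 1 CPM and no overlap, the 12 highest and 12 lowest log2 fold changes and the 8 smallest p each way. Added were the 2 members of each list with the smallest p, 11 set genes of ferroptosis, iron, lipid and bile acid handling and the 10 with most counts. Other genes were named from their list after their values were seen. On simulated data the fit of 13624 genes recovered 38 of 100 genes changed by 1 and 81 of 100 changed by 2 on the log2 scale. Alternatives were DESeq2 1.42.0, RLE and total scaling, 2 other filters, other library sets, a replicate block and each library left out. Some members of the lists are not reported here by name.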

Additional observations from a re-analysis of the deposited data

Results flagged for a closer look

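Of 134 named genes checked in the 4 HFD libraries (Alb, on which libraries were selected, was not), 11 had 1 library far from the other HFD libraries by Dixon's test, which flags about 1 group in 20 by chance. HFD 3 stood high in Mup19 (1212 CPM, nearest 191), Eef1a2 (5.84 CPM, nearest 0.548), Dlg2 (19.8 CPM, nearest 1.34) and Atg5 (27.5 CPM, nearest 22.5). HFD 4 stood high in Cyp2a4 (116 CPM, nearest 6.53), Fbn2 (18.0 CPM, nearest 0.932), Rasal1 (8.05 CPM, nearest 1.39) and Tfrc (98.7 CPM, nearest 26.9). HFD 1 stood high in Ccl2 (6.90 CPM, nearest 2.52). HFD 2 stood low in Timp1 (0.827 CPM, nearest 3.03) and was the one HFD library with reads of Hmga1b (0.276 CPM, the others 0). Outside the comparison, the adipocyte markers summed to 1.68% of counts in HFD plus HQHF 3, a library left out, against at most 0.0537% in an HFD library.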

How the results depend on the processing

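The counts of called genes depended most on the libraries. The libraries HFD plus HQHF 3 and control 2 included as labelled left 1 call (0 higher, 1 lower, 1 among the lists), and the 8 libraries of the 2 groups as labelled left 2 (0 higher, 2 lower, 2 among the lists). In these fits Aqp7 (4.54 with 12 and 4.55 with 8 libraries), Cd36 (1.15 and 1.16), G6pdx (1.13 and 1.14), Phgdh (0.66 and 0.67) and Epb41l1 (0.26 and 0.27) turned positive on the log2 scale. Leaving out 1 library at a time, controls included, gave 633 to 3301 calls (281 to 1360 higher, 352 to 1941 lower, 78 to 294 among the lists, beside 244). The lowest counts came without HFD plus HQHF 1 and the highest without HFD 3. The 7 libraries alone gave 1005 lower. Why 1 library moves the counts was not tested.

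Scaling set the direction of small changes. Library totals gave 6633 calls (137 higher, 6496 lower), and totals without Nemf, Lars2 and the Mup genes, chosen after seeing the data like the fits without a control, gave 4527 (215 higher, 4312 lower). With totals 103 of 135 named genes kept their side of the threshold, those called in both fits with the same direction. Genes called in neither fit count as kept whatever their sign. Psmb2, called with TMM, turned to -0.039. RLE scaling kept 134 of 135. DESeq2 called 1755 higher. An adjusted p of 0.1 gave 4210 calls (1709 higher, 2501 lower), and a 2-fold minimum 1453 (274 higher). The filters and the fit without the robust option left the counts within 1.5 times.

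Whether the replicate numbers pair the mice is not settled. Deviations of same-numbered libraries correlated at -0.02, 0.079 and 0.119, and those of unlike number at -0.177 to 0.101. With a replicate block 1719 genes were called, 642 of them higher. HFD plus HQHF 1 and 2 correlated best with HFD 3, and HFD plus HQHF 4 with HFD 4, its own number. Depth limits genes near 0 reads, for which bounds are given.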

Other observations

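Other gene groups also differed between HFD plus HQHF and HFD, as groups that the lists above do not hold. They were chosen after their values were seen and got no test of their own. Of 16 Pex genes, which build peroxisomes, 10 rose and 0 fell at a median log2 fold change of 0.58, but under library totals 0 passed and the median was 0.03. The count of 10 became 2 without HFD plus HQHF 1, 3 without HFD plus HQHF 2, 4 without HFD 1, 5 without HFD plus HQHF 4 or HFD 2. Of 19 genes with tubulin symbols, 9 fell, Tubg2 among them, and 0 rose, beside 11.1% lower of all genes. The count was 6 without HFD plus HQHF 1 or without HFD plus HQHF 2. Beside 11.1% of all genes, 13 of 32 genes with Adam or Adamts symbols fell, among them Adam8, given above. The 13 include Adamtsl1 and Adamtsl3, so this is a group by symbol and not of proteases alone. Of 28 genes with integrin symbols 9 fell, among them Itgax and Itgam, given above, and the integrin-like Itgbl1. The Adam and Adamts count was 3 without HFD plus HQHF 1, 6 without HFD 1 or 4, 7 without HFD plus HQHF 2 or 4. For the integrin symbols the count was 2 without HFD plus HQHF 2, 3 without HFD plus HQHF 1. It was 5 without HFD plus HQHF 4, 16 without HFD 3.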
